A study of Mus musculus with 6 samples.

Results

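The NF-kB factors and classic NF-kB target genes were followed in pancreatic islets, the endocrine cell clusters of the pancreas, taken from mice that carry a transgene for the microRNA miR-203 in their beta cells (TG) and from wild-type mice (WT). The members were taken by name, by a rule that holds no measured value, though with earlier results of these data known: Nfkb1, Nfkb2, Relb, Nfkbia, Tnfaip3, Malt1, Icam1, Vcam1, Ptgs2 and Nos2, which are 10 of the 47643 genes counted. All 10 passed the filter on low counts. Messenger RNA was sequenced in 3 TG and 3 WT islet libraries from male mice of 10 weeks after a fast of 12 h. TG 1, TG 2, WT 1 and WT 2 were deposited in the first table and TG 3 and WT 3 in the second, and the table was a term of the comparison. Where 3 values of a genotype follow each other, they stand in the order of the library numbers. The labels call the transgene beta-cell-specific, but the sources used here give neither the promoter that drives it nor the strain, nor whether islets of several mice were pooled. Nothing in the labels ties a library to a separate mouse, so the p-values measure the spread between these libraries, part of which may be technical.

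NF-kB is a family of dimeric transcription factors that inhibitor proteins of the IkB type hold in the cytoplasm of a resting cell. Signals from cytokine and pattern-recognition receptors activate the IkB kinase, IkB is degraded, and the dimers enter the nucleus and switch on genes of inflammation, adhesion and survival, among them their own inhibitors. A slower, non-canonical branch works by processing the Nfkb2 product in partnership with RelB. In islets, interleukin-1 is a well-known inducer of this pathway in beta cells, and Nos2 is one of its textbook targets there.

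The libraries held between 20176456 and 27482339 counts. The Mir203 gene, which checks the genotype labels, had 170, 164 and 150 counts in TG 1, TG 2 and TG 3, against 39, 0 and 0 counts in WT 1, WT 2 and WT 3, so the library labelled WT 1 stood apart from the other WT libraries. The islet hormone genes took 12.2% to 24.0% of counts in TG and 15.8% to 24.2% in WT. Although every mouse was labelled male, Xist had 27240 counts in TG 3 and 25145 in WT 3, against 8 to 12 in TG 1 and TG 2 and 4 to 13 in WT 1 and WT 2, and 4 Y-linked genes together had 1 count in TG 3 and 16 in WT 3. The second table therefore went against its sex label in both genotypes, and the members' log2 fold changes in the first table alone are given with the results. In bulk tissue, fewer cells of a type and less RNA per cell cannot be told apart.

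The promoters of the feedback genes are shown first, because NF-kB genes are known to carry NF-kB sites of their own. RefSeq windows (GRCm38.p6) of 250 bases before to 50 after a start site were at hand for 5 members, Nfkb2, Nfkbia, Tnfaip3, Icam1 and Ptgs2. The capitals mark every match to the 10-base kappa-B consensus on either strand, and the first base of a match is counted from the start site. The consensus was GGGRNWYYCC, where R is A or G, N any base, W A or T, and Y C or T.
Nfkb2: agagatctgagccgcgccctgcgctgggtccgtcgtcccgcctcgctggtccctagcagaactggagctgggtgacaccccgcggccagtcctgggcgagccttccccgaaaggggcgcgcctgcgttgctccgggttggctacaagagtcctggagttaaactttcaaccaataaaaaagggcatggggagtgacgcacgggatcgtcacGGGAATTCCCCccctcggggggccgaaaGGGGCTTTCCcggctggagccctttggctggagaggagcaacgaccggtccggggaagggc
Nfkbia: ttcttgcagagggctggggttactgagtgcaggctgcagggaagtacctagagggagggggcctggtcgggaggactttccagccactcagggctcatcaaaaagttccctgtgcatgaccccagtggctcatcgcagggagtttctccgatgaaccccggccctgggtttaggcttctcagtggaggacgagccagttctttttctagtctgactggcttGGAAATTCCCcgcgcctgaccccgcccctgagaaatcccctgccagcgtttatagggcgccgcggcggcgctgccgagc
The Nfkb2 window shown, 1 of 3 for this gene, lies at chr19:46304487-46304786 on the plus strand and holds matches at -39, -38 and -11, of which the first pair overlap. The other Nfkb2 windows held matches as well. The Nfkbia window lies at chr12:55492598-55492897 on the minus strand and holds 1 match, at -29. Tnfaip3 had matches at -125 and -12 in 1 of its windows, while the windows of Icam1 and Ptgs2 held no match to this exact consensus. Sites that differ from it by a base were not searched for, so a window without a match may still hold an NF-kB site. In all, 5 of the 8 windows of members held a match, beside 4.51% of all 32851 windows of the same length. The Nfkb2 windows that start at 46305445 and 46305680 overlap and share the match at 46305705. By gene, 3 of the 5 members held a match, beside 5.14% of 27025 genes. These shares describe the letters and not binding.

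The transcripts of the members were also searched for the site that the transgene's microRNA could pair with. The mature miR-203-3p, encoded at chr12:112130927-112130948 on the plus strand, is shown with its seed, bases 2 to 8, in capitals, and below it are the matches of 7 bases (CATTTCA) found in the longest annotated 3′ UTR of each member (GENCODE M21, GRCm38).
miR-203-3p: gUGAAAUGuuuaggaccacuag
Vcam1 match 1: ctgaagttagaagggCATTTCAgcg
Vcam1 match 2: tctctcaaaatatgtCATTTCAtcc
Vcam1 was the 1 member with a match. Its 3′ UTR of 1404 bases held 2, at bases 714 and 1176, where 14.4% of the UTRs within 20% of that length held at least 1. The 3′ UTRs of the other 9 members, of 336 to 2642 bases, held none, and 16.0% of all 20940 UTRs held at least 1.

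Most members differed little between the genotypes. Those at an unadjusted p under 0.05 in edgeR were Nfkb2 (lower in TG), Vcam1 and Ptgs2 (higher in TG). Nos2 also had a large fitted difference, with a log2 fold change of -1.62 (SE 0.70), but its groups overlapped. In the edgeR quasi-likelihood test over 16072 genes, 0 members passed a Benjamini-Hochberg adjusted p of 0.05, as did 0 of all genes (0%), and the smallest adjusted p of any gene was 0.199. At an unadjusted p under 0.05, 2 of the 10 members were higher in TG (Vcam1 and Ptgs2), against 9.32% of all genes, and 1 was lower (Nfkb2), against 4.81% of all genes. DESeq2 called Vcam1 higher and Nfkb2 lower, against backgrounds of 4.07% of genes called higher and 0.898% called lower, and limma-voom called 0 genes. Without TG 2, edgeR called Vcam1 and Ptgs2 higher and Nfkb2 lower, where 8.82% of all genes were called higher and 4.39% lower. With any other single library left out, edgeR called 0 members and 0 genes in all. All TG libraries lay above all WT libraries in 2 members (6.96% of all genes) and below them in 1 (6.42%). Compared within tables, all TG values exceeded the WT values for the same 2 members (13.0% of all genes) and were under them for Nfkb2 and Relb (13.4%). With 10 members, each of these counts is at most 2 genes and is given as a description. The fitted values were positive in 5 members and negative in 5, and their median log2 fold change (TG over WT) was 0.04, beside -0.01 over all genes tested.

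**Figure D1:**
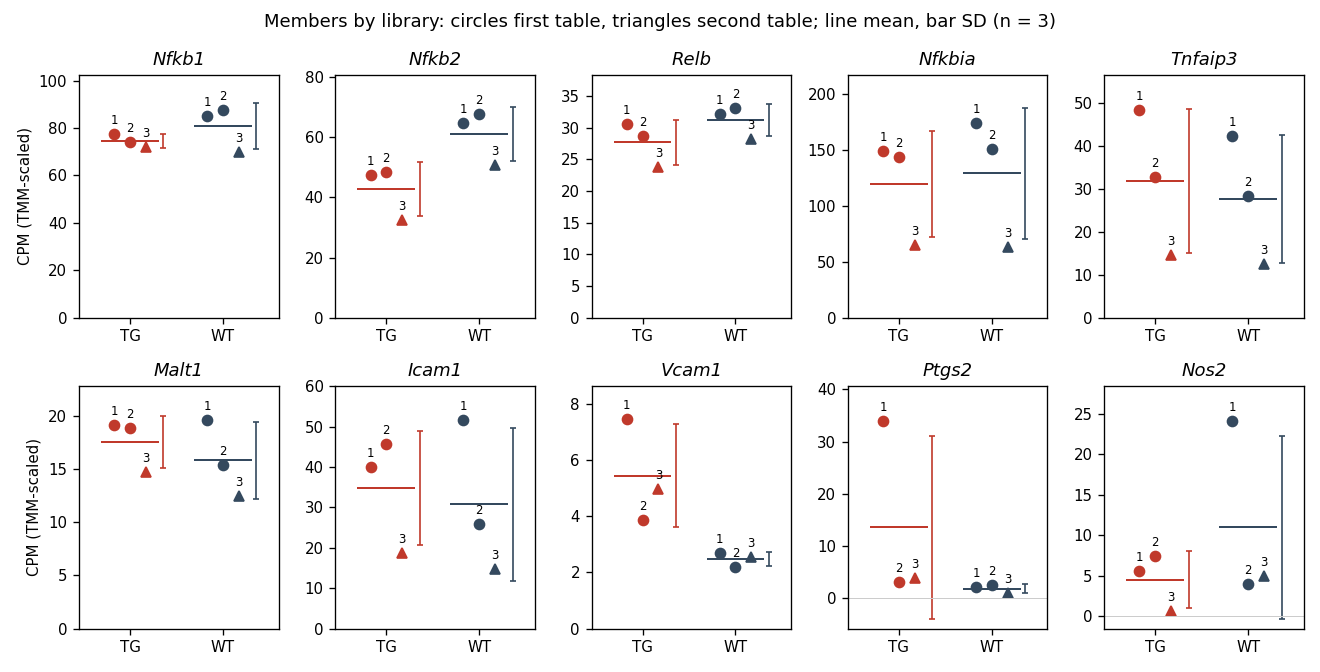
Level of each of the 10 members in CPM (counts scaled to library size by TMM) in the TG (red) and WT (dark) libraries, numbered 1 to 3, with circles for the first table and triangles for the second, a line for the mean and a bar for the SD (n = 3). Nfkb2 lies at 32.3 to 48.3 CPM in TG and 50.8 to 67.8 CPM in WT without overlap, Vcam1 is higher in every TG library, and Ptgs2 reaches 33.8 CPM in TG 1.

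Nfkb2, which encodes the p100 precursor and the p52 subunit of the non-canonical branch (ENSMUSG00000025225, chromosome 19, 46304737 to 46312090, plus strand), was the most clearly lower member. It had 47.5, 48.3 and 32.3 CPM in TG 1, TG 2 and TG 3, against 64.8, 67.8 and 50.8 CPM in the WT libraries. No TG library reached the lowest WT library, and the difference was of like size in each TG library, at -0.48, -0.46 and -0.65 log2 units from the WT mean of its own table. The TG libraries averaged 42.7 ± 9.01 CPM and the WT libraries 61.1 ± 9.09 CPM (SD, n = 3). The fit gave a log2 fold change of -0.53 (SE 0.12), or 0.693 of the WT level, with an unadjusted p of 0.00346 in edgeR, the 275th smallest of all genes, and a Benjamini-Hochberg adjusted p of 0.199. DESeq2 gave an adjusted p of 0.0175, limma-voom 0.253 and edgeR without TG 2 0.0283 (log2 fold change -0.56). Without TG 1, edgeR gave a log2 fold change of -0.54 and an adjusted p of 0.512. In the first table alone the log2 fold change was -0.47 (SE 0.16). Of the Nfkb2 exon bases in GENCODE M21, 6.52% also belong to exons of Psd and 11.6% to exons of the noncoding AC114539.1. Both lie on the opposite strand, and the counting is not stated to use strand. The deposited length of Nfkb2 is 3289 bases, against 4584 exon bases in GENCODE M21, so the shares among the counted bases may differ. Psd averaged 64.2 ± 30.2 CPM over the TG libraries and 66.4 ± 21.1 CPM over the WT libraries (SD, n = 3), with a log2 fold change of -0.10 (SE 0.13).

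Relb and Nfkb1 differed less. Relb, the partner of p52 (ENSMUSG00000002983, chromosome 7, 19606217 to 19629438, minus strand), had 30.6, 28.6 and 23.7 CPM in TG 1, TG 2 and TG 3, against 32.2, 33.1 and 28.3 CPM in the WT libraries. Each TG library was below its table's WT libraries, and TG 1 and TG 2 were above WT 3. The log2 fold change was -0.18 (SE 0.12; edgeR, Benjamini-Hochberg adjusted p = 0.553). Nfkb1, which encodes p105 and the p50 subunit of the canonical dimer (ENSMUSG00000028163, chromosome 3, 135584655 to 135691547, minus strand), was the steadiest member. It had 77.7, 74.2 and 71.8 CPM in TG 1, TG 2 and TG 3, against 85.1, 87.6 and 69.9 CPM in the WT libraries, a span of 0.33 log2 units over all 6 libraries where the median gene spanned 0.98. Its groups overlapped, and its log2 fold change was -0.11 (SE 0.12; edgeR adjusted p = 0.719). The first table alone gave -0.18 (SE 0.16) for Nfkb1 and -0.14 (SE 0.17) for Relb. The other activating subunits, taken from the pathway list, also differed little. Rela (p65) averaged 52.0 ± 15.5 CPM over the TG libraries and 50.5 ± 8.61 CPM over the WT libraries (SD, n = 3), with a log2 fold change of 0.03 (SE 0.19). Rel (c-Rel) had 14.6, 11.5 and 6.85 CPM in TG 1, TG 2 and TG 3, against 12.2, 12.2 and 8.10 CPM in the WT libraries, with a log2 fold change of -0.02 (SE 0.19).

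The inhibitors and the signalling protein among the members differed between tables more than between genotypes. Nfkbia encodes IkB-alpha, the inhibitor that NF-kB itself induces (ENSMUSG00000021025, chromosome 12, 55489411 to 55492647, minus strand). It had 149, 144 and 65.3 CPM in TG 1, TG 2 and TG 3, against 174, 150 and 63.0 CPM in the WT libraries. TG 3 and WT 3 were both less than 0.5 of the level of any first-table library, and within each table the genotypes lay close together. Its log2 fold change was -0.08 (SE 0.13; edgeR, Benjamini-Hochberg adjusted p = 0.815), with -0.14 (SE 0.19) in the first table alone and 0.01 without WT 1. Tnfaip3 encodes A20, a ubiquitin-editing enzyme that shuts the pathway off (ENSMUSG00000019850, chromosome 10, 19000910 to 19015657, minus strand). It had 48.3, 32.7 and 14.6 CPM in TG 1, TG 2 and TG 3, against 42.2, 28.4 and 12.4 CPM in the WT libraries. The groups overlapped, the second table was again the lowest, and the log2 fold change was 0.21 (SE 0.21; edgeR adjusted p = 0.695). It was 0.20 (SE 0.29) in the first table alone, 0.03 without TG 1, 0.36 without TG 2, 0.40 without WT 1 and 0.06 without WT 2.

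The step between the tables was measured in the WT libraries alone. WT 3 minus the mean of WT 1 and WT 2 was -1.36 log2 units for Nfkbia, -1.47 for Tnfaip3, -1.29 for Icam1, -1.21 for Ptgs2 and -0.98 for Nos2. For Nfkb1, Nfkb2, Relb and Malt1 the difference was -0.30, -0.38, -0.21 and -0.47, and for Vcam1 it was 0.06, beside a median of -0.03 over all genes tested. Each step rests on 1 library, and the second table and the sex its transcripts show cannot be told apart.

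**Figure D2:**
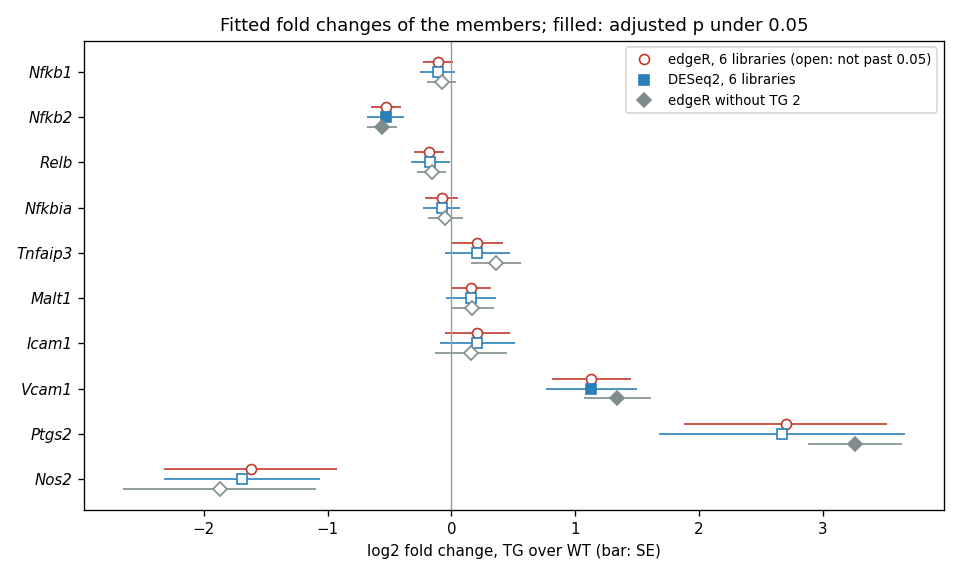
Fitted log2 fold change (TG over WT) of each member with its SE in edgeR on 6 libraries, in DESeq2 on 6 libraries and in edgeR without TG 2, with filled symbols for an adjusted p under 0.05. The edgeR symbols on 6 libraries are all open, and the filled symbols are Nfkb2 and Vcam1 in DESeq2 and Nfkb2, Vcam1 and Ptgs2 without TG 2.

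Malt1 encodes a paracaspase that links antigen and other receptors to the IkB kinase (ENSMUSG00000032688, chromosome 18, 65430963 to 65478823, plus strand). It had 19.2, 18.9 and 14.8 CPM in TG 1, TG 2 and TG 3, against 19.7, 15.4 and 12.5 CPM in the WT libraries. TG 3 was above WT 3, while WT 1 was above every TG library. The fit gave a log2 fold change of 0.16 (SE 0.16; edgeR, Benjamini-Hochberg adjusted p = 0.691). It was 0.12 (SE 0.22) in the first table alone, 0.29 without WT 1 and 0.08 without WT 2.

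Icam1 and Vcam1 are the adhesion receptors that capture leukocytes on activated endothelium. Icam1 (ENSMUSG00000037405, chromosome 9, 21015960 to 21028797, plus strand) had 39.9, 45.7 and 18.8 CPM in TG 1, TG 2 and TG 3, against 51.7, 25.8 and 14.8 CPM in the WT libraries. The groups overlapped, and WT 1 and WT 2 differed from each other by more than the genotypes did. The log2 fold change was 0.21 (SE 0.26; edgeR, Benjamini-Hochberg adjusted p = 0.752), with 0.15 (SE 0.34) in the first table alone, 0.58 without WT 1 and -0.02 without WT 2. Of its exon bases in GENCODE M21, 11.7% are shared with the antisense gene Gm47079. The deposited length of Icam1 is 2540 bases, against 4360 exon bases in GENCODE M21. The share among the counted bases may therefore differ.

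Vcam1 (ENSMUSG00000027962, chromosome 3, 116109949 to 116129688, minus strand) was at a low level and higher in every TG library. It had 7.48, 3.89 and 4.98 CPM in TG 1, TG 2 and TG 3, from 215, 98 and 120 counts, against 2.70, 2.20 and 2.54 CPM in the WT libraries, from 50, 50 and 58 counts. The lowest TG library, TG 2, has a 95% exact Poisson interval of 3.16 to 4.74 CPM, and the highest WT library, WT 1, one of 2.0 to 3.56 CPM, so these 2 overlap in counting error alone. The TG libraries averaged 5.45 ± 1.84 CPM and the WT libraries 2.48 ± 0.255 CPM (SD, n = 3), and the log2 fold change was 1.13 (SE 0.32), a 2.20-fold higher level. The edgeR p was 0.00987 unadjusted and 0.238 after Benjamini-Hochberg adjustment. The adjusted p was 0.0468 in DESeq2, 0.280 in limma-voom and 0.0227 in edgeR without TG 2 (log2 fold change 1.34). Without TG 1, edgeR gave a log2 fold change of 0.80 and an adjusted p of 0.529. In the first table alone the log2 fold change was 1.22 (SE 0.43), and TG 3 lay 0.95 log2 units above WT 3. Vcam1 is the member with the miR-203 seed matches shown above, and whether the microRNA acts on its transcript was not tested.

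The cell types that can carry Vcam1 were followed by marker lists. The 14 endothelial markers summed to 434, 397 and 781 CPM in TG 1, TG 2 and TG 3, against 399, 570 and 364 CPM in the WT libraries. Of these 14, 12 had a positive fitted value (85.7%, beside 48.1% of all genes), with a median log2 fold change of 0.33. The edgeR fit put 2 above and 0 below WT with an unadjusted p below 0.05 (9.32% and 4.81% of all genes). DESeq2 called 1 higher and 0 lower (4.07% and 0.898%). With TG 2 left out, edgeR called 2 higher and 0 lower (8.82% and 4.39%). Free of overlap, 0 lay above and 0 below WT (6.96% and 6.42%). The 12 stellate and pericyte markers summed to 189, 37.6 and 156 CPM in the TG libraries, against 29.7, 75.7 and 86.1 CPM in the WT libraries. Of these 12, 10 had a positive fitted value (83.3%), with a median of 1.08. At an unadjusted p under 0.05 in edgeR, 4 were above WT (9.32% of all genes). DESeq2 called 2 higher (4.07%), edgeR without TG 2 called 5 higher (8.82%), and 1 lay above WT without overlap (6.96%). Vcam1 and the stellate and pericyte sum took the same order over the TG libraries, TG 1 above TG 3 above TG 2. Vcam1 stood at 1.58, 0.66 and 0.95 log2 units from the WT mean of the table in TG 1, TG 2 and TG 3. The endothelial sum stood at -0.13, -0.27 and 1.10 log2 units. Over the WT libraries the order was not shared, as WT 1 had the lowest stellate and pericyte sum and the highest Vcam1, 2.70 CPM. TG 2 was lower than the WT mean of its table in both sums and higher in Vcam1, while TG 3 had the highest endothelial sum of all libraries. All defining markers of both lists had counts in every library, and the part of these cells in the Vcam1 difference was not tested.

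Ptgs2, which encodes cyclooxygenase-2, the inducible enzyme of prostaglandin synthesis (ENSMUSG00000032487, chromosome 1, 150100031 to 150108227, plus strand), had the largest fitted difference of the members. It had 33.8, 3.06 and 3.99 CPM in TG 1, TG 2 and TG 3, from 973, 77 and 96 counts, against 2.21, 2.46 and 0.963 CPM in the WT libraries, from 41, 56 and 22 counts. Every TG library was above every WT library, but TG 1 stood far from the others and TG 2 was close to WT 2. The exact Poisson intervals were 2.41 to 3.82 CPM in TG 2 and 1.86 to 3.20 CPM in WT 2, and they overlap. Set against the WT mean of its own table, Ptgs2 was higher by 3.81 log2 units in TG 1, by 0.38 in TG 2 and by 1.96 in TG 3. The fitted log2 fold change was 2.70 (SE 0.82), with an edgeR p of 0.0139 unadjusted and 0.248 after Benjamini-Hochberg adjustment. Without TG 1 it was 1.08 (adjusted p = 0.544) and without TG 2 it was 3.26 (adjusted p = 0.00376), both in edgeR. The size of the difference thus rests on which TG library is counted. DESeq2 gave an adjusted p of 0.100 and limma-voom one of 0.437. In the first table alone the log2 fold change was 2.98 (SE 1.04).

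The 3 TG libraries took the same order, TG 1 above TG 3 above TG 2, in Ptgs2 and in the stellate and pericyte marker sum. That sum stood at 2.0 log2 units from the WT mean of the table in TG 1, 0.85 in TG 3 and -0.33 in TG 2. The WT libraries did not share an order, as WT 3 had the highest stellate and pericyte sum of them, 86.1 CPM, and the lowest Ptgs2, 0.963 CPM. The stellate marker Col1a1 had 30.6, 0.913 and 35.3 CPM in TG 1, TG 2 and TG 3, against 0.270, 1.10 and 14.2 CPM in the WT libraries. The 12 myeloid markers summed to 206, 118 and 216 CPM in TG and to 88.6, 206 and 92.5 CPM in WT. Of the 11 tested, 8 had a positive fitted value (72.7%, beside 48.1% of all genes), with a median log2 fold change of 0.24. Without overlap, 0 of them lay above WT and 1 lay below (6.96% and 6.42% of all genes). The latter was the macrophage marker Cd68, with 10.02, 9.764 and 9.838 CPM in TG, against 14.95, 30.05 and 18.56 CPM in WT. At an unadjusted p under 0.05 in edgeR, 2 myeloid markers were above and 1 below WT (9.32% and 4.81% of all genes). DESeq2 called 2 higher and 1 lower (4.07% and 0.898%). Without TG 2, edgeR called 3 higher and 0 lower (8.82% and 4.39%). The islet hormone sum took the reverse order, at -1.05, 0.00 and -0.41 log2 units from the WT mean of the table in TG 1, TG 2 and TG 3. The part of these in the Ptgs2 difference was not tested.

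Nos2, which encodes the inducible nitric oxide synthase (ENSMUSG00000020826, chromosome 11, 78920787 to 78960254, plus strand), had the widest span of the members over the 6 libraries, 5.09 log2 units. It had 5.53, 7.38 and 0.623 CPM in TG 1, TG 2 and TG 3, from 159, 186 and 15 counts, against 24.1, 4.0 and 4.95 CPM in the WT libraries, from 446, 91 and 113 counts. WT 1 was the highest and TG 3 the lowest, while TG 1 and TG 2 lay between WT 1 and the other WT libraries, so the groups overlapped. Its log2 fold change was -1.62 (SE 0.70; edgeR, Benjamini-Hochberg adjusted p = 0.361), without WT 1 it was -0.83, and without WT 2 it was -2.29. DESeq2 gave an adjusted p of 0.109. In the first table alone the log2 fold change was -1.12 (SE 0.76), with an unadjusted p of 0.195. In the second table, with 1 library of each genotype and no test, TG 3 minus WT 3 was -2.83 log2 units, from 15 counts in TG 3. Cxcl10, a chemokine on the target list, was also highest in WT 1, at 77.1 CPM, against 9.55 to 36.3 CPM in the TG libraries and 10.3 to 17.4 CPM in the other WT libraries, and it is named after its values were seen.

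**Figure D3:**
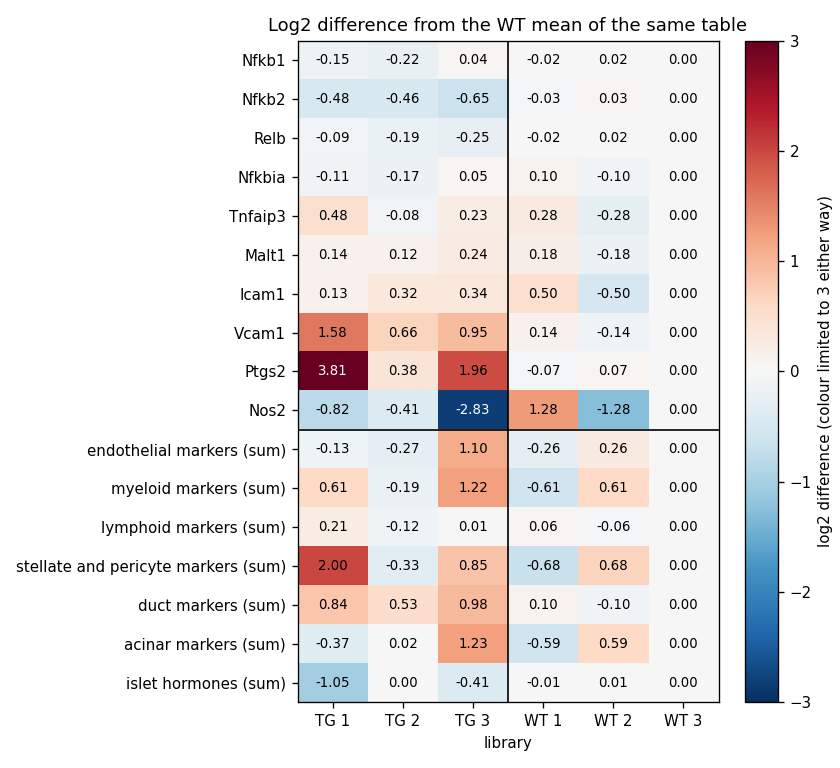
Log2 difference of each library from the WT mean of its own table, for the 10 members above the line and for summed marker lists below it, with red for higher and blue for lower. Nfkb2 is lower in the 3 TG libraries, Ptgs2 and the stellate and pericyte sum are both highest in TG 1, and WT 3 is 0 by construction as the single WT library of its table.

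Levels of different genes were compared within a library only, as the authors' FPKM (fragments scaled by gene length and library size), which accounts for length. Nfkbia had the highest FPKM of the members in all 6 libraries, at 90.4, 87.0 and 45.2 FPKM in TG 1, TG 2 and TG 3, against 105, 90.8 and 44.1 FPKM in the WT libraries. Nfkb2 and Icam1 came next after Nfkbia in 5 of the 6 libraries, while in WT 3 Relb, at 8.03 FPKM, stood above Icam1, at 6.44 FPKM. Relb was above Nfkb1 in each library, most narrowly in TG 3, with 6.68 against 6.50 FPKM. Vcam1 had the lowest FPKM of the members in TG 1, TG 2, WT 1 and WT 2, with Nos2 lowest in TG 3 at 0.154 FPKM and Ptgs2 lowest in WT 3 at 0.232 FPKM. Ptgs2 in TG 1, at 7.05 FPKM, stood between Relb and Tnfaip3 of the same library. The deposited FPKM were made separately for each table, so they are read within a library only.

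The members did not share 1 profile. Their mean profile over the 6 libraries, as log2 CPM centred on each gene's mean, was 0.63, 0.17 and -0.58 in TG 1, TG 2 and TG 3, against 0.41, -0.06 and -0.58 in WT 1, WT 2 and WT 3, with the second-table libraries lowest in both genotypes. Malt1, Nfkbia, Tnfaip3 and Icam1 were closest to it, with root-mean-square differences of 0.261 to 0.313 log2 units, while Nos2 and Ptgs2 were farthest, at 1.24 and 1.31. Among 11163 other genes with a mean of at least 5 CPM, the closest were Zfp125, Stk3, Rap1b, Zfp292 and Ugp2, with differences of 0.098 to 0.154 log2 units. The test of a TG effect that differs between the tables, the interaction of table and genotype in edgeR, called 0 members and 0% of all genes, with 2.28% of genes at an unadjusted p under 0.05 and 0 members among them. The lowest unadjusted p of a member was 0.249, for Nos2. The second table holds a single library of each genotype, so the spread in this test comes from the first table's libraries. The absence of calls therefore does not show that the tables agree.

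The rest of the pathway was read from 6 lists of 97 genes, of which 92 passed the filter. In edgeR 0 of them passed a Benjamini-Hochberg adjusted p of 0.05, while 11 lay above and 6 below WT at an unadjusted p of less than 0.05, which 9.32% and 4.81% of all genes did. The receptors had a median log2 fold change of 0.12, the adaptors and ubiquitin ligases -0.03, the kinases -0.16, the other inhibitors 0.03 and the other subunits and IkB proteins 0.03, beside -0.01 over all genes.

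Among the receptors, 13 of 14 were tested, with 1 above and 2 below WT at an unadjusted p of less than 0.05 (9.32% and 4.81% of all genes). Il1r1, the interleukin-1 receptor and the most abundant gene of the list, had 486, 639 and 429 CPM in TG 1, TG 2 and TG 3, against 911, 744 and 586 CPM in the WT libraries. Each TG library was below its table's WT libraries, and TG 2 was above WT 3. The fit gave a log2 fold change of -0.52 (SE 0.19; edgeR, Benjamini-Hochberg adjusted p = 0.294). Tnfrsf1a, the main receptor of tumour necrosis factor, had 54.0, 75.9 and 70.0 CPM in TG, against 110, 77.6 and 105 CPM in WT, without overlap but with TG 2 just below WT 2. Its log2 fold change was -0.55 (SE 0.19; adjusted p = 0.286, and 0.0490 without TG 2, both edgeR). Tnfrsf11a, the receptor RANK, was higher, with a mean of 14.7 ± 4.31 CPM over the TG libraries and 8.12 ± 1.53 CPM over the WT libraries (SD, n = 3), and its groups did not overlap (log2 fold change 0.84, SE 0.26; edgeR adjusted p = 0.254, and 0.0237 without TG 2).

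Among the 20 adaptors and ubiquitin ligases tested, 2 were above and 1 below WT at that unadjusted p, beside the same 9.32% and 4.81%. Irak2, a kinase-like adaptor of the interleukin-1 and Toll-like receptors, had 26.1, 9.92 and 27.6 CPM in TG 1, TG 2 and TG 3, against 8.80, 9.20 and 7.79 CPM in the WT libraries. TG 1 and TG 3 were well above every WT library and TG 2 barely so. The log2 fold change was 1.27 (SE 0.38; edgeR, Benjamini-Hochberg adjusted p = 0.245, and 0.00207 without TG 2), with 1.0 (SE 0.46) in the first table alone, and DESeq2 called it (0.0248). Card10, a scaffold that recruits Bcl10 and Malt1, had a log2 fold change of 0.76 (SE 0.30), and Traf6, a ubiquitin ligase of the interleukin-1 branch, one of -0.33 (SE 0.14). The most abundant adaptor, Irak1, averaged 124 ± 10.1 CPM over the TG libraries and 154 ± 22.6 CPM over the WT libraries (SD, n = 3).

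The IkB kinase subunits were close to the WT level. Chuk differed by -0.13 (SE 0.18) on the log2 scale, Ikbkb by -0.18 (SE 0.12) and Ikbkg by -0.30 (SE 0.20), and Ikbkb was below its table's WT libraries in every TG library. Of the 10 kinases 7 had negative fitted values, as did 8349 of all 16072 genes tested. At an unadjusted p under 0.05 in edgeR, 0 kinases were above and 1 was below WT (9.32% and 4.81% of all genes). The latter was Tbk1, a kinase related to the IkB kinase subunits. It averaged 38.0 ± 5.78 CPM over the TG libraries and 48.8 ± 8.62 CPM over the WT libraries (SD, n = 3). Among the 11 other inhibitors 0 had such a p in either direction, beside the same 9.32% and 4.81%. Tax1bp1, the A20 partner and the most abundant of them, averaged 185 ± 24.8 CPM over the TG libraries and 173 ± 47.7 CPM over the WT libraries. Among the other subunits and IkB proteins 0 of 7 had such a p, beside those shares again. The most abundant was Nfkbiz, an atypical IkB protein. It averaged 97.2 ± 9.27 CPM over the TG libraries and 86.3 ± 33.7 CPM over the WT libraries (SD, n = 3).

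Target genes outside the members were the list with the most genes above WT. Of 34 genes 31 were tested, 24 had a positive fitted value (77.4%, beside 48.1% of all genes), and 8 were above and 2 below WT at that unadjusted p, beside 9.32% and 4.81% of all genes. The median log2 fold change was 0.44, and relative to the WT mean of the table the median gene stood at 0.71 log2 units in TG 1, 0.24 in TG 2 and 0.35 in TG 3. Called higher were 6 by DESeq2, where 4.07% of all genes were, and 9 by edgeR with TG 2 left out, where 8.82% were, and 0 were called lower by either. The list was described by these counts alone, and it was not tested as a set. Most tested markers of the duct, endothelial and stellate and pericyte lists had positive fitted values in the same fit. All 9 duct markers tested had a positive fitted value, with a median of 0.48, and the duct sum was 2806, 2269 and 2289 CPM in TG 1, TG 2 and TG 3, against 1683, 1467 and 1161 CPM in the WT libraries. Fitted values were also positive for 85.7% of the endothelial and 83.3% of the stellate and pericyte markers. The endothelial sum stood at -0.13, -0.27 and 1.10 log2 units from the WT mean of the table in TG 1, TG 2 and TG 3. The stellate and pericyte sum was below that mean in TG 2 (-0.33). The part of these cell types in the target genes' values was not tested.

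Of the 8 genes above WT, 5 were chemokines (Cxcl1, Cxcl5, Ccl2, Ccl5 and Ccl7), and the others were Il6, Sele and Cd83. Cxcl5, a neutrophil chemokine, had 31.4, 15.2 and 10.7 CPM in TG 1, TG 2 and TG 3, against 9.01, 8.36 and 2.54 CPM in the WT libraries, without overlap. Its log2 fold change was 1.63 (SE 0.31; edgeR, Benjamini-Hochberg adjusted p = 0.199; DESeq2, 0.000214). Il6, an inflammatory cytokine, had 25.6, 11.1 and 11.5 CPM in TG, against 8.64, 8.49 and 2.28 CPM in WT, again without overlap (log2 fold change 1.49, SE 0.39; edgeR adjusted p = 0.230; DESeq2, 0.00784). With the first table alone the values were 1.10 (SE 0.41) for Il6 and 1.42 (SE 0.37) for Cxcl5. Ccl2, a monocyte chemokine, had 57.4, 36.7 and 12.5 CPM in TG, against 30.9, 19.6 and 4.33 CPM in WT. Each TG library was above its table's WT libraries, while TG 3 was below WT 1 and WT 2. The second table was lower in both genotypes. On the log2 scale Ccl2 differed by 1.09 (SE 0.27), Ccl7 by 1.43 (SE 0.40) and Cxcl1 by 0.67 (SE 0.20), and each was higher within its table in all 3 TG libraries.

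Sele, the endothelial adhesion receptor E-selectin, was under the level set for naming and is named after its values were seen. It had 61, 26 and 36 counts in TG 1, TG 2 and TG 3, against 4, 6 and 6 counts in WT 1, WT 2 and WT 3, or 2.12, 1.03 and 1.49 CPM against 0.216, 0.264 and 0.263 CPM. The exact Poisson interval of the lowest TG library, 0.674 to 1.51 CPM, did not reach that of the highest WT libraries, 0.0969 to 0.575 CPM. Its log2 fold change was 2.62 (SE 0.44; edgeR, Benjamini-Hochberg adjusted p = 0.199; DESeq2, 0.00407). Like Vcam1, Sele was higher in every TG library. The endothelial marker sum stood at -0.13, -0.27 and 1.10 log2 units from the WT mean of the table in TG 1, TG 2 and TG 3. The part of endothelial cells in the Sele difference was not tested.

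The lower genes of the target list were Csf1, a macrophage growth factor, and F3, tissue factor. Csf1 had 59.9, 81.9 and 38.7 CPM in TG 1, TG 2 and TG 3, against 129, 93.7 and 45.3 CPM in the WT libraries, each TG library being below its table's WT libraries (log2 fold change -0.51, SE 0.20; edgeR, Benjamini-Hochberg adjusted p = 0.322). F3 averaged 23.1 ± 3.77 CPM over the TG libraries and 29.5 ± 1.39 CPM over the WT libraries (SD, n = 3), without overlap (log2 fold change -0.36, SE 0.14; edgeR adjusted p = 0.311). Sod2, the mitochondrial superoxide dismutase and the most abundant target, averaged 156 ± 61.7 CPM over the TG libraries and 182 ± 74.2 CPM over the WT libraries, with a log2 fold change of -0.18 (SE 0.20).

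**Figure D4:**
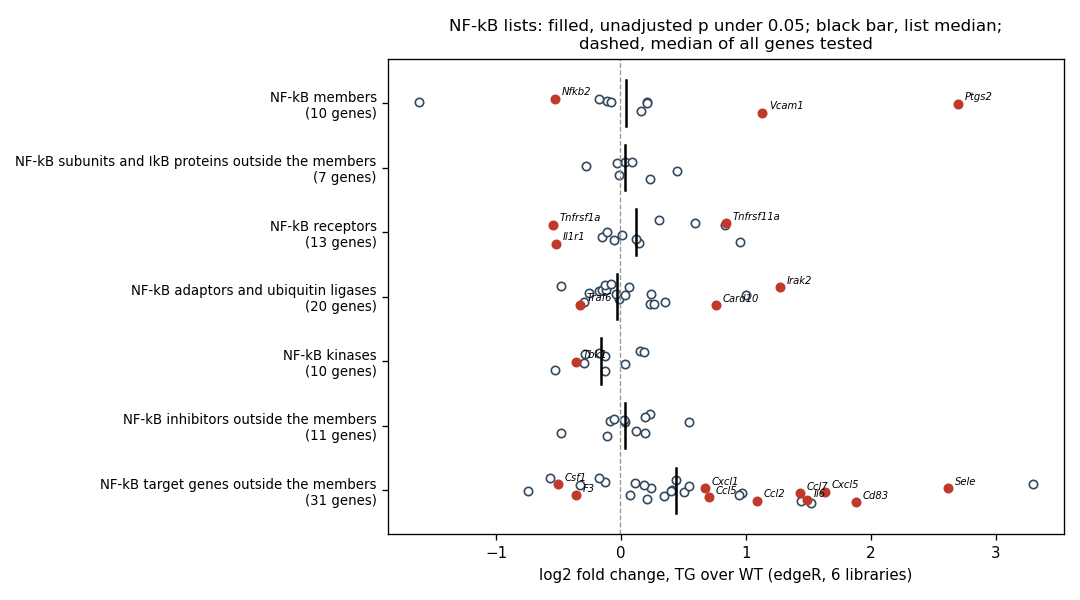
Fitted log2 fold changes (TG over WT, edgeR on 6 libraries) of the members and of the 6 other NF-kB lists, 1 point per gene, with filled points for an unadjusted p under 0.05, a black bar for the list median and a dashed line for the median of all genes tested. The list of target genes outside the members has its median at 0.44, and the other lists lie between -0.16 and 0.12.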

How the data were processed

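The authors deposited raw counts per gene, FPKM and a normalized signal in 2 sets of tables, and per the submitters' processing notes CASAVA 1.8, HISAT2 and GRCm38 (mm10) were used. For the read counting, the tool, the use of strand and the gene annotation are not given here. Genes of the first and second table were matched by identifier, and the deposited counts were fitted with edgeR 4.0.16 (filterByExpr by genotype, TMM, quasi-likelihood F-test, table and genotype as terms) in R 4.3.3, with Benjamini-Hochberg adjustment over 16072 genes and a threshold of 0.05. The SE was taken as |log2 fold change| over the square root of F. Log2 CPM used a prior count of 2. DESeq2 1.42.0 and limma-voom (limma 3.58.1) were alternatives. The deposited FPKM, per the file headers with gene lengths, served only to compare genes within a library. The fits were tested on simulated data. Total counts of 20176456 to 27482339 set the precision, and the Poisson intervals hold for counting error alone, as PCR copies were not told apart by molecular identifiers.

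The members and the gene lists were chosen with earlier results of these data known. Named outside the members were Rela, Rel, Chuk, Ikbkb, Ikbkg, the most abundant gene of each NF-kB list, and up to 5 genes per list and direction with the smallest p among those at an unadjusted p under 0.05 and a mean of at least 1 CPM. The genes most like the members' mean profile were the 5 with the smallest root-mean-square difference. Bcl3, Ccl5, Cd68, Cd83, Cxcl10, Col1a1, Krt19, Psd and Sele were named after their values were seen.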

Additional observations from a re-analysis of the deposited data

How the results depend on the processing

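Of 130 pairs of a member and an alternative (13 alternatives), 120 kept the direction and the side of the threshold, 8 kept the direction and passed the threshold, and 2 changed sign. The alternatives without TG 3, without WT 3 and on the first table alone nearly repeat each other, so they are not separate checks. Nfkb2, for example, had a log2 fold change of -0.47 in each. Against 0 members, 0 other pathway genes and 0 genes in all called in edgeR on 6 libraries, DESeq2 called 2, 7 and 752, and edgeR without the filter on low counts called 3, 16 and 1672. Leaving out single libraries called from 0 to 3 members, 0 to 12 pathway genes and 0 to 2188 genes, with every call in the fit without TG 2. The cause was not tested. In that fit the members were Nfkb2, Vcam1 and Ptgs2, and without the filter they were Vcam1, Ptgs2 and Nos2 (log2 fold change -1.65, adjusted p = 1.47e-06). Over single libraries left out, the log2 fold change of Nfkbia ran from -0.15 to 0.01 (without WT 1), that of Tnfaip3 from 0.03 (without TG 1) to 0.40 (without WT 1) and that of Icam1 from -0.02 (without WT 2) to 0.58 (without WT 1). The interaction of table and genotype called 0 members with RLE scaling and without the filter. No paired analysis was possible because the labels give the TG and WT libraries no shared numbers. Depth limits Vcam1, Ptgs2, Nos2 and Sele most, with as few as 50, 22, 15 and 4 counts in a library.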

Other observations

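Of the 10 duct markers, 6 were higher in all TG libraries than in all WT libraries, beside 6.96% of all genes tested. Krt19 overlapped between the genotypes, at -0.40, 0.63 and 1.05 log2 units from the WT mean of the table in TG 1, TG 2 and TG 3. The 9 acinar markers with a named row summed to 3006, 3943 and 242 CPM in TG, against 2584, 5838 and 103 CPM in WT. The 12 lymphoid markers summed to 7.46 to 12.4 CPM in TG and 7.79 to 12.3 CPM in WT, and 6 of them, Cd3e, Cd3d, Cd3g, Cd8a, Nkg7 and Cd2, had 0 counts in at least 1 library.

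Bcl3, an atypical IkB protein that works in the nucleus, had 52.7, 53.3 and 87.7 CPM in TG 1, TG 2 and TG 3, against 54.5, 44.2 and 39.7 CPM in the WT libraries. TG 3 stood 1.14 log2 units above WT 3, while TG 1 and TG 2 lay 0.10 and 0.12 above the WT mean of their table. The edgeR interaction of table and genotype had an unadjusted p of 0.0182 for Bcl3 and did not pass after Benjamini-Hochberg adjustment over all genes. Cd83, an activation marker of immune cells, had 13.6, 1.87 and 6.02 CPM in TG, against 2.54, 2.42 and 1.14 CPM in WT, so that TG 2 was below WT 1 and WT 2. Its log2 fold change was 1.88 (SE 0.68; edgeR adjusted p = 0.294), and without TG 2 the adjusted p was 0.00193. Both genes are named after their values were seen.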
